A study of Homo sapiens with 6 samples.

Results

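The nuclear genes for complexes III, IV and V of oxidative phosphorylation were followed in QBC-939 cells, a human cholangiocarcinoma (bile duct cancer) line, after BMI1 was lowered. The BMI1 protein belongs to a Polycomb complex that marks histones and helps to keep developmental genes silent. A group of 3 libraries came from cells given a Bmi1 shRNA and a second group of 3 from cells given a scrambled shRNA (control), all collected after 48 h and described as independent transfections. All libraries share the same parental line, grown in DMEM with serum, and no further hairpin and no rescue of BMI1 was analysed here. The members were the rows of the gene table whose names begin with UQCR, COX4 to COX8 or ATP5. Of 66 such rows, 25 with pseudogene names and 1 hyphenated readthrough name were set aside, and no name was repeated, which left 40 of the 27238 rows. Complex III had 9 of these genes, complex IV 13 and complex V 18.

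In the inner mitochondrial membrane, complex III (the cytochrome bc1 complex) passes electrons from ubiquinol to cytochrome c, and complex IV (cytochrome c oxidase) passes them on to oxygen. Both pump protons. Complex V (ATP synthase) lets the protons flow back through a rotating ring of c subunits and couples the rotation to ATP synthesis in its F1 head. Cytochrome b, the catalytic core of complex IV and the a subunit of complex V are encoded in mitochondrial DNA, while the genes described here are transcribed in the nucleus and their proteins imported.

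BMI1 measured 1.49, 1.19 and 2.65 FPKM in the Bmi1 shRNA libraries, against 6.65, 5.34 and 6.09 FPKM in the control libraries, so every Bmi1 shRNA library was below every control library. FPKM are fragments per kilobase of transcript scaled to the mapped fragments of a library. Their sums were 352800 to 360371 in Bmi1 shRNA libraries and 332910 to 341268 in control libraries, and the read depth is unknown, so no counting interval can be given. All 7 biliary and epithelial markers (KRT7, KRT19, KRT8, KRT18, EPCAM, CDH1 and SOX9) were present, with summed levels of 1517 to 1750 FPKM in Bmi1 shRNA libraries and 1777 to 1937 FPKM in control libraries. The stromal, endothelial and muscle markers that had a row reached at most 0.445 FPKM in sum in any library. Of the leukocyte markers LYZ alone, and of the hepatocyte markers TTR and SERPINA1 alone, had a mean of at least 1 FPKM. The hepatocyte list summed to 228 to 240 FPKM in Bmi1 shRNA libraries and 156 to 166 FPKM in control libraries, and the leukocyte list to 1511 to 1570 FPKM with Bmi1 shRNA and 1417 to 1519 FPKM in control. Their part in the results was not tested.

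In the deposited values most of the nuclear genes of the 3 complexes were higher with Bmi1 shRNA. The 2 called lower encode a core subunit of complex III (UQCRC1) and the catalytic subunit of complex V (ATP5F1B). Of the 40 members, 38 had a mean of at least 1 FPKM and were tested: 31 rose, 2 fell and 5 did not pass (tested with limma after taking log2(FPKM + 1), at a p under 0.05 after Benjamini-Hochberg adjustment over 11016 rows). Over all tested rows 57.1% were called, 28.6% higher and 28.5% lower, so the share of calls among members has to be read against a broad change. The groups did not overlap for 34 of the 38 members, 32 higher and 2 lower, against 65.4% of all tested rows, of which 32.3% were higher and 33.1% lower. The median log2 fold change was 0.54 over the members and -0.017 over all tested rows, and the median ratio of mean FPKM was 1.47. The members ran from -0.31 (ATP5F1D, not called) to 0.99 (ATP5MD). After the trend with GC content and length was removed (described further on), neither UQCRC1 nor ATP5F1B was called. In that fit 21 members were higher and 1 was lower (COX5A), at a median log2 fold change of 0.28.

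**Figure D1:**
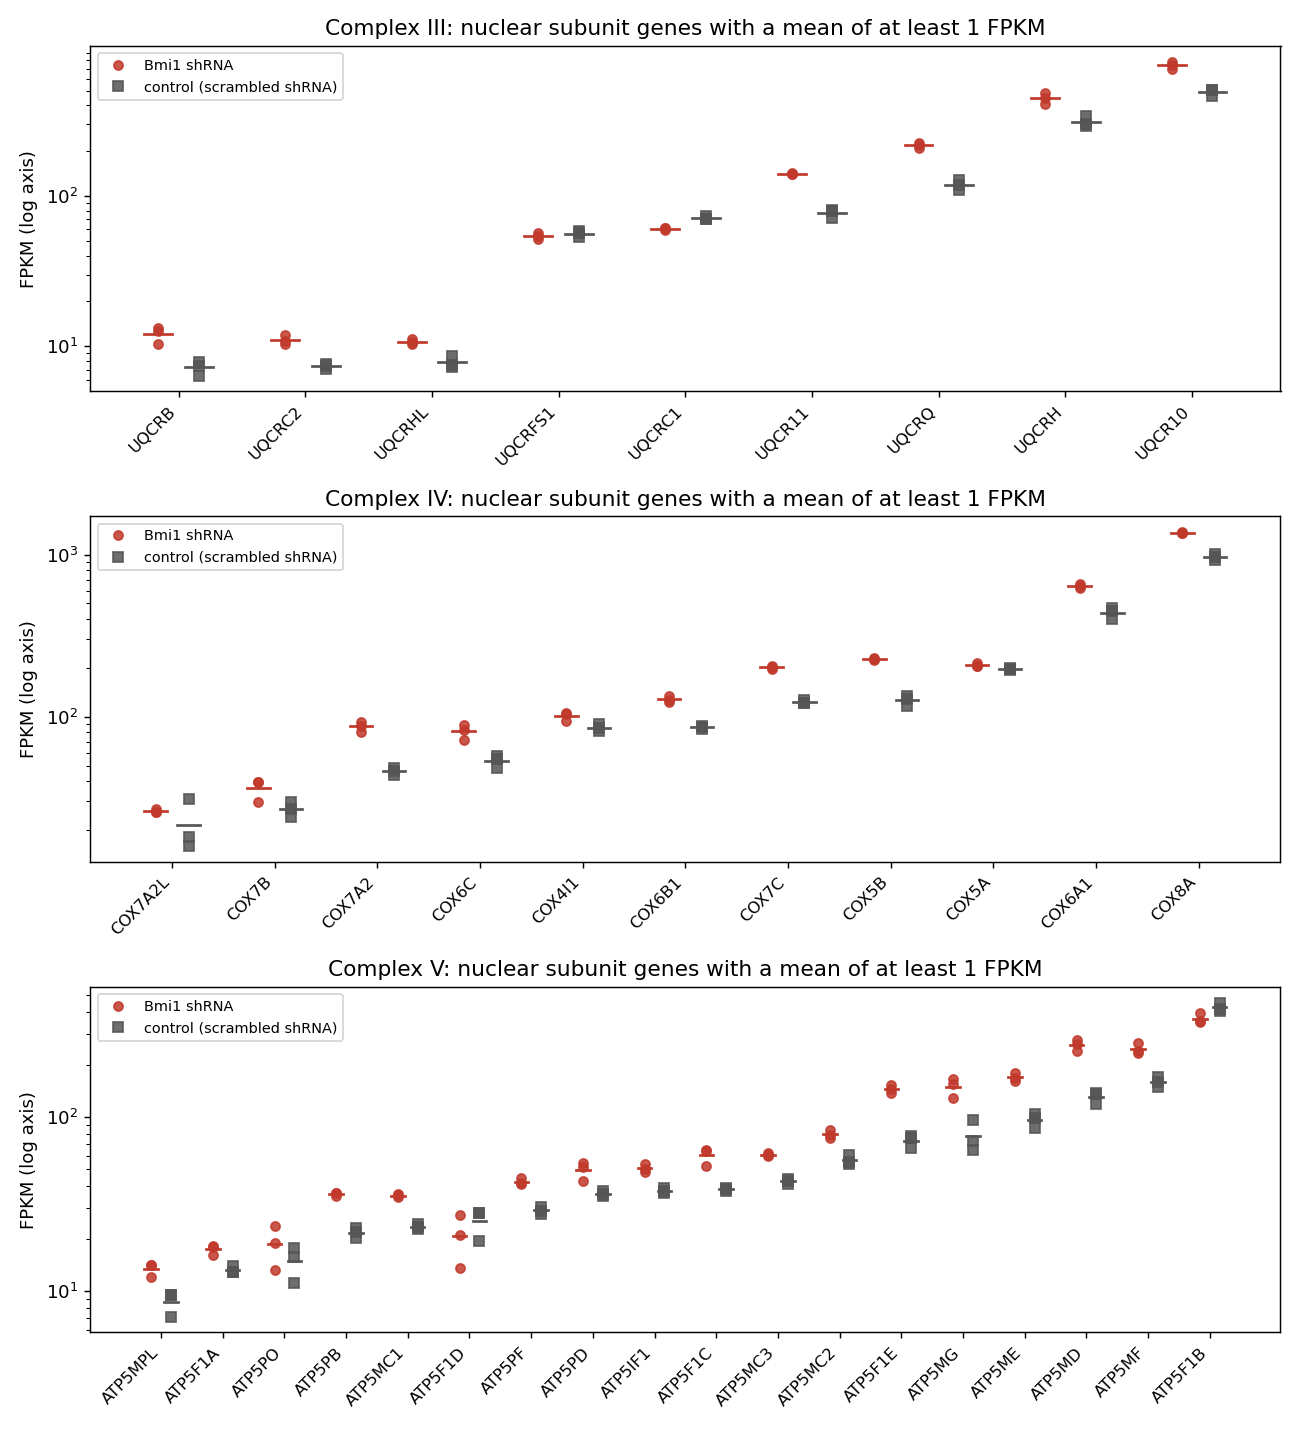
FPKM of the 38 tested members on a log axis, by complex, with genes ordered by their control mean. Red circles are the 3 Bmi1 shRNA libraries, grey squares the 3 control libraries and short lines the group means; most members sit higher in Bmi1 shRNA libraries, while UQCRC1 and ATP5F1B sit lower, and ATP5F1D, ATP5PO, UQCRFS1 and COX7A2L overlap.

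The promoters of 4 members are shown, chosen after their values were seen, because they carry matches to motifs of factors known to drive respiratory genes and include both directions of change. They are RefSeq windows of 250 bases before to 50 after the gene start in GRCh38.p14, printed 5′ to 3′ on the gene's strand, with matches on either strand in capitals. The motifs searched were GCGC followed by any base and TGCGC for NRF1, CCGGAAG for ETS factors such as GABPA, AAGATGGCG for YY1 and GGGCGG for SP1. UQCR11 lies at chr19:1605413-1605712 (minus strand), COX5B at chr2:97645812-97646111 (plus), ATP5MD at chr10:103396426-103396725 (minus) and UQCRC1, which fell, at chr3:48609597-48609896 (minus).
UQCR11: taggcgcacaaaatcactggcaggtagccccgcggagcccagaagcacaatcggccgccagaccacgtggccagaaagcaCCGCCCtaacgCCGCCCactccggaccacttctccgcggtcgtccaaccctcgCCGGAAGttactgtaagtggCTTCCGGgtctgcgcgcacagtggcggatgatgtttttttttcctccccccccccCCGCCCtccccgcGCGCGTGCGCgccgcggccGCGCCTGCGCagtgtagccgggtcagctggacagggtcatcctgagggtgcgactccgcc
COX5B: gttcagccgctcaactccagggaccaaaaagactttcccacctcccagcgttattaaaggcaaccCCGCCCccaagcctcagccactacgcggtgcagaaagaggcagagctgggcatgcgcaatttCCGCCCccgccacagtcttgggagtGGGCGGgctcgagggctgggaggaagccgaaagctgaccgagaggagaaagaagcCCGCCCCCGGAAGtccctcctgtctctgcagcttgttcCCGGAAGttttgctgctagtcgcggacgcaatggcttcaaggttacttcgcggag
ATP5MD: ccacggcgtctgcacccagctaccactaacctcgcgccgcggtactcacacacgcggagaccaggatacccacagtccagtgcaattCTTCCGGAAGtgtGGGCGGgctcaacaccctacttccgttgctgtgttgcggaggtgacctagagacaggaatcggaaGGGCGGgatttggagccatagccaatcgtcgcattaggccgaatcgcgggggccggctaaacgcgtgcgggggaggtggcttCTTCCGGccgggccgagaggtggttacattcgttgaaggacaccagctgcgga
UQCRC1: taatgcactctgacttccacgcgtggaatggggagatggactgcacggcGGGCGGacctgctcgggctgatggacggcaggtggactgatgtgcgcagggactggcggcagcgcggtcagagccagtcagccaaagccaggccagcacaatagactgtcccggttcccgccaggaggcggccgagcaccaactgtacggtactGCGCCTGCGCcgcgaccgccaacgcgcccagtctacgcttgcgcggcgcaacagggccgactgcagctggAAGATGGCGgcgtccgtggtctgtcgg
The UQCR11 window holds 2 NRF1, 2 ETS and 3 SP1 matches, and that of COX5B 2 ETS and 4 SP1 matches. The ATP5MD window holds 3 ETS matches, a pair of which overlap as a palindrome, and 2 SP1 matches. The UQCRC1 window holds an NRF1, a YY1 and an SP1 match and no ETS match.

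Of the 38 tested members, 31 had a RefSeq promoter entry, and UQCRB, UQCRHL, COX6C, ATP5F1B, ATP5F1D, ATP5MC3 and ATP5MF did not. The NRF1 motif was found in 8 of these 31 (25.8%), against 14.5% of 7814 tested genes with an entry and 6.98% of all 27305 genes with an entry. The ETS motif was found in 14 (45.2%, against 24.2% and 12.2%), the YY1 motif in 2 (6.45%, against 5.22% and 2.14%) and the SP1 motif in 21 (67.7%, against 79.2% and 48.3%). Matches of different motifs did not overlap in any member window. A match describes letters and not binding, and the members of a pathway are not independent draws.

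In the deposited values of complex III the small supernumerary subunits all rose, whereas the core and redox proteins differed among themselves. Among 9 genes there were 7 that rose and 1 that fell, and UQCRFS1 did not pass. The median log2 fold change was 0.53. With the trend with GC content and length removed (described further on), 4 of the 6 supernumerary genes were called higher, without UQCRB and UQCRH. With medians over each gene's transcripts in that removal, 5 of the 6 were called higher, without UQCRB. The 6 include UQCRHL, a copy of UQCRH whose change is uncertain, since reads of UQCRH may have been assigned to it.

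Among the core subunits, UQCRC1 (core protein 1) measured 59.3, 61.6 and 60.9 FPKM with Bmi1 shRNA, against 73.9, 70.8 and 70.3 FPKM in control. Its groups were apart, and it fell by 0.24 on the log2 scale (SE 0.05; limma, adjusted p = 0.006). Its partner UQCRC2 (core protein 2) measured 10.3, 11.8 and 10.9 FPKM with Bmi1 shRNA, against 7.58, 7.38 and 7.06 FPKM in control, and rose, with a log2 fold change of 0.52. The core pair thus moved in opposite directions in the deposited values. After the trend with GC content and length was removed (described further on), UQCRC2 was still higher (0.47) and UQCRC1 was not called. With medians over each gene's transcripts in that removal, UQCRC2 was at 0.17 and not called either (limma, adjusted p = 0.0584). UQCRFS1, the Rieske iron-sulfur protein that takes electrons from ubiquinol, measured 54.2, 56.9 and 51.8 FPKM with Bmi1 shRNA and 58.1, 53.4 and 56.9 FPKM in control. These ranges overlap, with a log2 fold change of -0.05 ± 0.06 (SE; limma, adjusted p = 0.522). CYC1, the cytochrome c1 subunit, falls outside the name rule and also did not pass, at 93.1 ± 2.59 FPKM with Bmi1 shRNA and 90.9 ± 8.42 FPKM in control (SD, n = 3 each; limma, adjusted p = 0.69).

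The 6 supernumerary genes of complex III had log2 fold changes of 0.41 to 0.88. UQCRQ, the subunit VIII gene, measured 219, 225 and 210 FPKM with Bmi1 shRNA, against 128, 109 and 119 FPKM in control, a ratio of means of 1.84 (limma, adjusted p = 0.000332). UQCR11, whose promoter holds both NRF1 and ETS matches, measured 140, 141 and 142 FPKM with Bmi1 shRNA, against 80.3, 71.9 and 79.8 FPKM in control. Its 3 Bmi1 shRNA values were the closest of any member, with a coefficient of variation of 0.617%. UQCRB, the ubiquinone-binding protein, measured 13.2, 12.6 and 10.4 FPKM with Bmi1 shRNA, against 7.92, 6.38 and 7.45 FPKM in control (log2 fold change 0.66). UQCR10 measured 783, 740 and 703 FPKM with Bmi1 shRNA, against 509, 462 and 505 FPKM in control, and was the most abundant complex III mRNA in both groups. UQCRH, the hinge protein that lies near cytochrome c1, measured 482, 452 and 408 FPKM with Bmi1 shRNA, against 338, 291 and 299 FPKM in control. For each of these genes every Bmi1 shRNA library was above every control library.

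In complex IV, whose nuclear subunits surround the mitochondrially encoded core, 9 of 11 tested genes rose, none fell and 2 did not pass. At an unadjusted p under 0.05 (limma) likewise 0 complex IV genes were lower. The median log2 fold change was 0.55.

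COX7A2, the isoform of subunit 7A found in most tissues, measured 92.9, 87.6 and 80.7 FPKM with Bmi1 shRNA, against 48.1, 44.0 and 46.5 FPKM in control, a ratio of 1.89 (limma, adjusted p = 0.000315). COX5B, a zinc-binding subunit on the matrix side, measured 226, 225 and 231 FPKM with Bmi1 shRNA, against 135, 116 and 128 FPKM in control, a ratio of 1.80. COX7C measured 206, 203 and 198 FPKM with Bmi1 shRNA, against 121, 126 and 122 FPKM in control. COX6C measured 89.5, 83.0 and 71.9 FPKM with Bmi1 shRNA, against 57.5, 48.4 and 54.7 FPKM in control. In all 4 the groups were well apart. COX6B1, COX6A1 and COX8A rose by 0.56, 0.55 and 0.50 on the log2 scale, and COX8A was the most abundant member of all, at 1370, 1355 and 1378 FPKM with Bmi1 shRNA and 1010, 928 and 968 FPKM in control.

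COX4I1, a large nuclear subunit involved in the regulation of the enzyme by ATP, and COX7B were called with smaller changes. COX4I1 measured 105, 104 and 93.8 FPKM with Bmi1 shRNA and 84.8, 81.7 and 89.8 FPKM in control (log2 fold change 0.24 ± 0.07 SE; limma, adjusted p = 0.0208). COX7B measured 39.3, 39.8 and 29.8 FPKM with Bmi1 shRNA and 29.8, 24.2 and 26.8 FPKM in control (0.41 ± 0.13 SE; limma, adjusted p = 0.0344), and its Bmi1 shRNA replicate 3 stood level with the highest control library. COX4I1 was not called without Bmi1 shRNA replicate 1 or 2 or control replicate 1 or 2 (adjusted p up to 0.066), with libraries scaled to a common total (0.15; adjusted p = 0.0803) or with quantile normalization (0.089; adjusted p = 0.206). COX7B was not called without Bmi1 shRNA replicate 1 or 2 or control replicate 2 or 3 (adjusted p up to 0.102), with no filter on low values (adjusted p = 0.0852) or with libraries scaled to a common total (adjusted p = 0.0569).

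COX5A, the partner of COX5B on the matrix side, measured 205, 214 and 205 FPKM with Bmi1 shRNA and 200, 193 and 196 FPKM in control. Its groups did not overlap, but the log2 fold change of 0.08 ± 0.04 (SE) did not pass (limma, adjusted p = 0.143), and its sign turned with libraries scaled to a common total (-0.005) or quantile normalized (-0.082). COX7A2L, which takes part in joining complexes III and IV into supercomplexes, measured 25.8, 25.8 and 27.1 FPKM with Bmi1 shRNA and 30.9, 15.9 and 18.1 FPKM in control. Control replicate 1 stood apart from the other control libraries for this gene, and the log2 fold change was 0.33 ± 0.23 (SE; limma, adjusted p = 0.255). It was 0.60 without that library (limma, adjusted p = 0.00327) and 0.15 without control replicate 2 (limma, adjusted p = 0.597). With the trend with GC content and length removed, COX7A2L was at 0.16 and not called.

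In the deposited values of complex V, genes of the membrane part, c ring and peripheral stalk rose, apart from ATP5PO, which did not pass. The F1 head was mixed. Of 18 genes, 15 rose, 1 fell and 2 did not pass, with a median log2 fold change of 0.55. With the trend with GC content and length removed (described further on), 3 of 5 membrane genes and all 3 c ring genes were called higher. In that fit 2 of 4 peripheral stalk genes and 2 of 5 F1 genes were called higher. With medians over each gene's transcripts in that removal, the stalk and F1 numbers were the same, and all 5 membrane genes were called higher.

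The F1 head holds alternating alpha and beta subunits around the gamma stalk. ATP5F1B, the beta subunit that carries the catalytic sites, measured 397, 354 and 352 FPKM with Bmi1 shRNA, against 404, 454 and 420 FPKM in control. Every Bmi1 shRNA library was below every control library, and it fell by 0.21 on the log2 scale (SE 0.07; limma, adjusted p = 0.0371). That call ended without Bmi1 shRNA replicate 2 or 3 or control replicate 2 or 3 (adjusted p up to 0.104), and also with no filter on low values (adjusted p = 0.0933) or upper quartile scaling (adjusted p = 0.0696). ATP5F1A, the alpha subunit, measured 16.2, 18 and 18.2 FPKM with Bmi1 shRNA, against 12.9, 12.8 and 14 FPKM in control, and rose, with a log2 fold change of 0.38. Within each library, which takes scaling out of the comparison, the FPKM ratio of ATP5F1B to ATP5F1A was 24.5, 19.7 and 19.4 with Bmi1 shRNA and 31.4, 35.6 and 30.0 in control. The groups do not overlap (exact two-sided permutation test, p = 0.1, which is the lowest value possible with 3 libraries a group); this ratio was chosen after the values were seen. The absolute ratio also rests on the transcript lengths behind the FPKM, which are not given.

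ATP5F1E, the epsilon subunit, measured 152, 144 and 137 FPKM with Bmi1 shRNA, against 78.0, 66.2 and 75.5 FPKM in control, a ratio of 1.97 (limma, adjusted p = 0.000332). ATP5F1C, the gamma subunit that turns with the ring, averaged 60.2 ± 6.86 FPKM with Bmi1 shRNA and 38.5 ± 0.807 FPKM in control (SD, n = 3 each; log2 fold change 0.63). ATP5F1D, the delta subunit, measured 13.5, 20.9 and 27.5 FPKM with Bmi1 shRNA and 28.1, 28.2 and 19.5 FPKM in control. It had the widest spread of any member with Bmi1 shRNA, and the groups overlapped (log2 fold change -0.31 ± 0.26 SE; limma, adjusted p = 0.342). Its log2 fold change was -0.051 without Bmi1 shRNA replicate 1 and -0.54 without Bmi1 shRNA replicate 3.

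All 5 genes of the membrane part rose, by 0.58 to 0.99 on the log2 scale. ATP5MD, which encodes DAPIT, a small subunit linked to ATP synthase dimers, measured 278, 264 and 238 FPKM with Bmi1 shRNA, against 136, 119 and 137 FPKM in control. Its ratio of 1.99 was the highest of all members (limma, adjusted p = 0.000382). ATP5MG (subunit g) measured 128, 165 and 154 FPKM with Bmi1 shRNA, against 96.1, 64.8 and 73.3 FPKM in control. ATP5ME (subunit e) measured 179, 167 and 161 FPKM with Bmi1 shRNA, against 98.6, 86.8 and 104 FPKM in control. Subunits e and g lie together where ATP synthase dimers meet, and both genes had groups that were apart. ATP5MF (subunit f) and ATP5MPL, a small proteolipid, rose with ratios of 1.55 and 1.54.

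Of the 4 peripheral stalk genes, which hold the F1 head still, ATP5PB (subunit b), ATP5PF (coupling factor 6) and ATP5PD (subunit d) rose with ratios of 1.67, 1.46 and 1.37. ATP5PO, the oligomycin sensitivity protein at the top of the stalk, measured 23.6, 19 and 13.3 FPKM with Bmi1 shRNA and 11.2, 17.8 and 15.8 FPKM in control. These values overlap widely (log2 fold change 0.29 ± 0.24 SE; limma, adjusted p = 0.33). The log2 fold change was 0.11 without Bmi1 shRNA replicate 1 or without control replicate 1, and 0.50 without Bmi1 shRNA replicate 3. ATP5IF1, the inhibitor that binds F1 when the proton gradient fails, averaged 50.7 ± 2.92 FPKM with Bmi1 shRNA and 37.7 ± 1.15 FPKM in control (SD, n = 3 each) and rose, with a log2 fold change of 0.41.

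**Figure D2:**
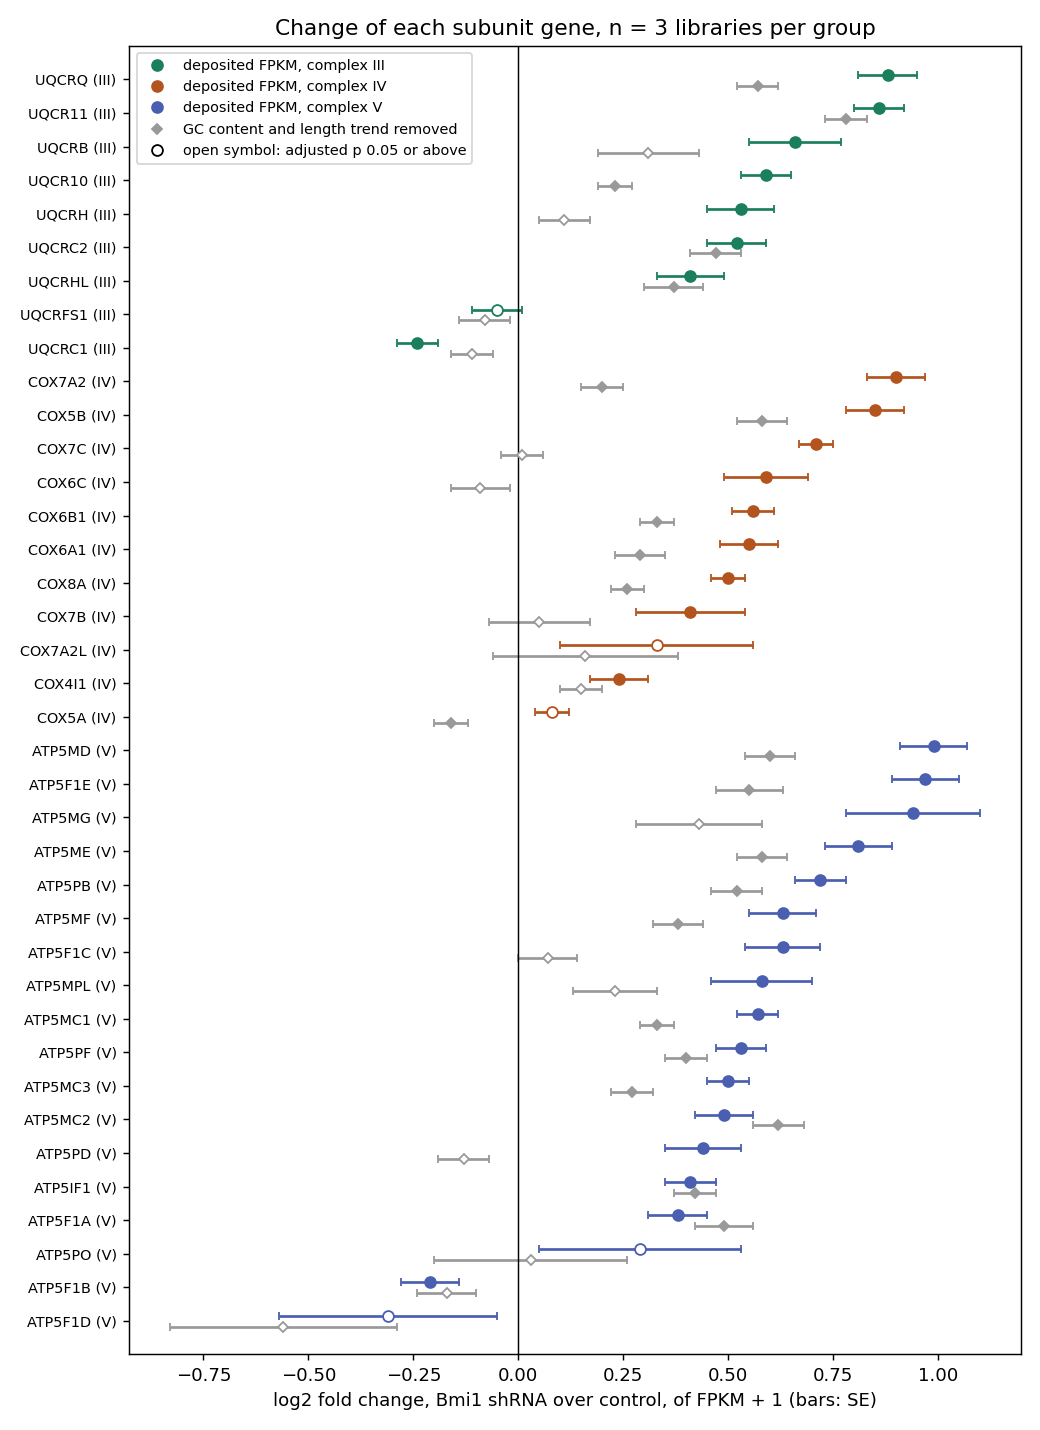
Log2 fold change of FPKM + 1, Bmi1 shRNA over control, for the 38 tested members, where bars give the standard error. Coloured circles are the deposited values by complex, grey diamonds the values after removal of the trend with GC content and length, and open symbols did not pass at an adjusted p under 0.05; ATP5F1D, ATP5F1B, UQCRC1 and UQCRFS1 lie below 0 in both.

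Several subunits can be made from more than 1 gene, and their shares were compared within each library. ATP5MC1, ATP5MC2 and ATP5MC3 encode the same mature c subunit behind different import sequences. ATP5MC1 measured 36.1, 35.6 and 34.6 FPKM with Bmi1 shRNA, against 23.5, 22.7 and 24.3 FPKM in control. ATP5MC2 measured 83.9, 75.8 and 79.1 FPKM with Bmi1 shRNA, against 54.8, 53.7 and 60.3 FPKM in control. ATP5MC3 measured 62.2, 60.4 and 59.5 FPKM with Bmi1 shRNA, against 43.9, 41.2 and 43.1 FPKM in control. All 3 rose, by 0.57, 0.49 and 0.50 on the log2 scale. As shares of their summed FPKM, ATP5MC2 gave 45.3% ± 1.03 with Bmi1 shRNA and 45.9% ± 1.20 in control, and ATP5MC3 gave 34.6% ± 0.532 with Bmi1 shRNA and 34.9% ± 1.10 in control (SD, n = 3 each; exact permutation p = 0.6 and 0.7). ATP5MC1 gave 19.8 to 20.7% with Bmi1 shRNA and 19.1 to 19.3% in control, a shift of 0.968 percentage points with no overlap (exact permutation p = 0.1, the smallest possible).

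UQCRHL, an intronless copy of UQCRH, measured 11.2, 10.6 and 10.3 FPKM with Bmi1 shRNA and 8.65, 7.33 and 7.48 FPKM in control. It gave 2.34% ± 0.107 of the summed hinge protein FPKM with Bmi1 shRNA and 2.46% ± 0.031 in control (SD, n = 3 each; exact permutation p = 0.3). Because the copies are nearly identical, reads of UQCRH may have been assigned to UQCRHL and its change is uncertain. The muscle isoform COX7A1 was at 0.0435 FPKM or less and the testis isoform COX6B2 at 0.0336 FPKM or less in every library, so neither was tested. Their counterparts with signal were COX7A2 and COX6B1, the second at 134, 126 and 124 FPKM with Bmi1 shRNA and 86.7, 83.9 and 88.2 FPKM in control.

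Processed pseudogenes complicate this family: GENCODE 29 lists 95 pseudogenes named after 25 of the members, 17 of them after COX6C. Of the rows set aside for their names, 4 had a mean of at least 1 FPKM, while the other 22 reached 0.83 FPKM at most. COX6A1P2 averaged 44.4 ± 3.35 FPKM with Bmi1 shRNA and 27.1 ± 2.42 FPKM in control, a ratio of 1.64 beside 1.46 for COX6A1. ATP5MC2P4 and COX7CP1 were also higher, with ratios of 1.57 and 3.47. UQCRFS1P1 averaged 8.52 ± 1.01 FPKM with Bmi1 shRNA and 10.5 ± 1.13 FPKM in control and did not pass (limma, adjusted p = 0.0622). How reads that match both a gene and its copies were shared out was not stated in the labels, and members with expressed copies are uncertain to that degree.

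Summed over each complex, the nuclear mRNA levels were higher in every Bmi1 shRNA library. Complex III summed to 1771, 1712 and 1607 FPKM with Bmi1 shRNA and 1211, 1079 and 1152 FPKM in control. Complex IV summed to 3138, 3125 and 3060 FPKM with Bmi1 shRNA and 2272, 2060 and 2187 FPKM in control. Complex V summed to 1899, 1821 and 1744 FPKM with Bmi1 shRNA and 1335, 1282 and 1317 FPKM in control. The ratios of the means were 1.48, 1.43 and 1.39, which were not tested against each other. Together the 40 genes held 1.82 to 1.89% of a library's summed FPKM with Bmi1 shRNA and 1.33 to 1.41% in control.

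**Figure D3:**
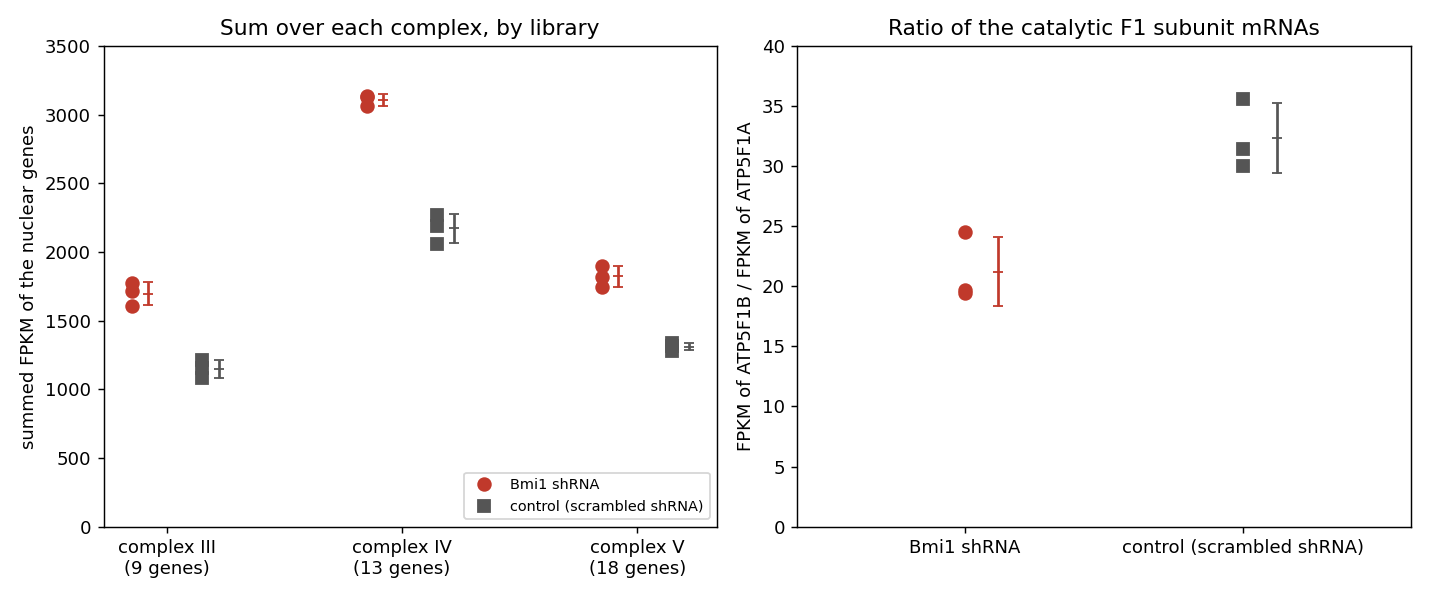
Left, summed FPKM of the nuclear genes of each complex in each library; right, the FPKM ratio of ATP5F1B to ATP5F1A in each library. Red circles are Bmi1 shRNA libraries and grey squares control libraries, and the bars beside them give the mean and SD (n = 3); all sums are higher and all ratios lower in the Bmi1 shRNA libraries.

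Within a complex the tested genes, which leave out COX7A1 and COX6B2, differed widely in mRNA level. The highest tested complex III gene stood 68.4 to 76.2 times above the lowest in Bmi1 shRNA libraries and 67.2 to 72.5 times in control libraries. For complex IV the span was 50.8 to 53.0 times with Bmi1 shRNA and 33.9 to 58.2 times in control, and for complex V 24.9 to 29.4 times with Bmi1 shRNA and 42.4 to 63.7 times in control. The complex V span was thus narrower in all Bmi1 shRNA libraries. Its highest gene was ATP5F1B in every library, and its lowest was ATP5MPL except in Bmi1 shRNA replicate 1, where it was ATP5F1D, which was not called. The standard deviation of log2 FPKM over all complex V genes, which rests less on these extremes, was 1.42 to 1.5 with Bmi1 shRNA and 1.39 to 1.43 in control.

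Many members had their lowest value in the same replicate library. With Bmi1 shRNA, 27 of 38 members had their lowest value in replicate 3, against 27.5% of all tested rows. In control, 31 of 38 were lowest in replicate 2, against 29.8% of all tested rows. The coefficient of variation over 3 libraries had a median of 5.40% with Bmi1 shRNA and 6.20% in control, and exceeded 20% for 2 members with Bmi1 shRNA and 3 in control, with the highest values for ATP5F1D and COX7A2L. Leaving out each library in turn gave between 29 and 31 members called higher.

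**Figure D4:**
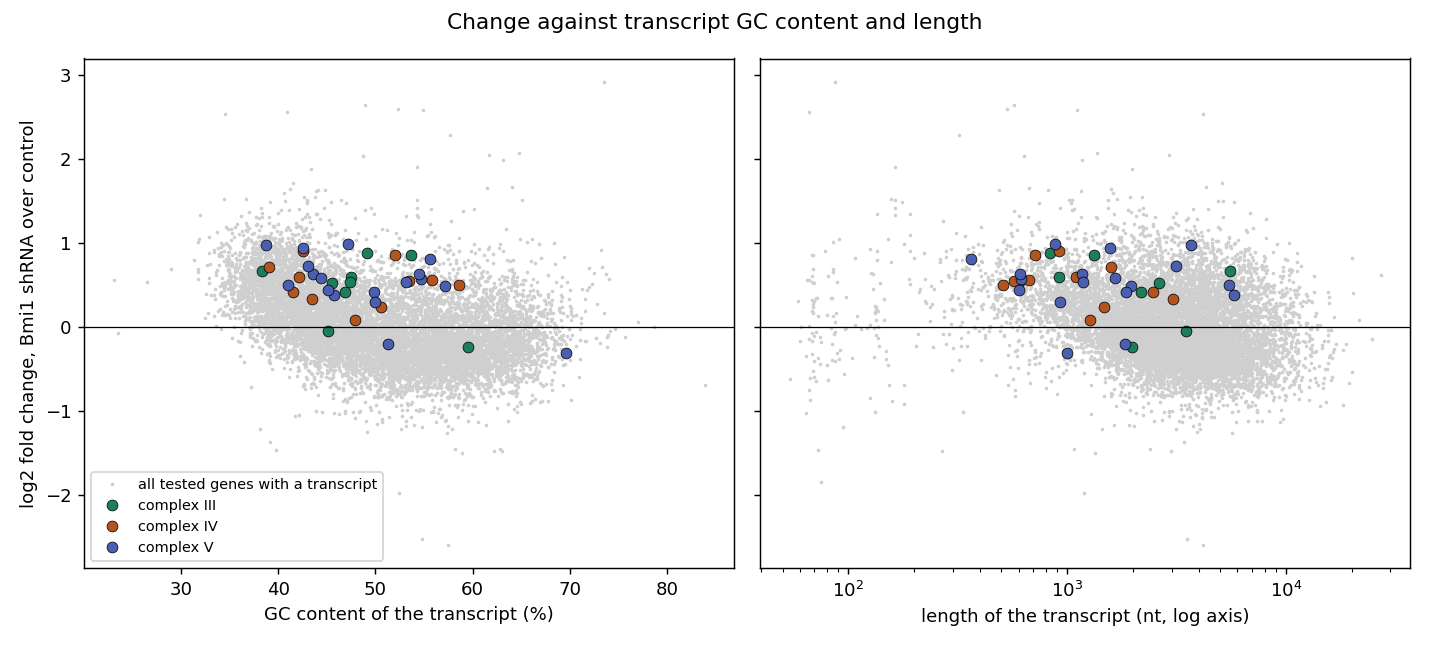
Log2 fold change (Bmi1 shRNA over control) against transcript GC content (left) and transcript length on a log axis (right). Grey dots are all tested genes with a known transcript and coloured circles the members by complex; UQCRC1, UQCRFS1, ATP5F1B and ATP5F1D are the members below 0.

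Changes in these libraries went with the GC content and length of transcripts, and the members were shorter than most and somewhat lower in GC content. Their median length was 1296 nt and their median GC content 47.5%, against 2920 nt and 50.4% over 10225 tested genes with a known transcript. Across the 38 members, which share libraries, the changes had a Spearman's rho of -0.284 against GC content and -0.256 against length, while over all tested genes these were -0.473 and -0.274. With both trends removed from each library, 21 members were higher, 1 lower and 16 did not pass, at a median of 0.28. In that fit 39.7% of all genes were called, 19.1% higher and 20.5% lower. The part that GC content and length have in the changes was not otherwise tested.

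The members differed in how far that removal moved them. UQCR11 (53.7% GC) stood at 0.78 after the removal and at 0.86 in the deposited values, both as log2 fold changes. ATP5IF1 (49.9%) had 0.42 and 0.41, ATP5MC2 (57.2%) 0.62 and 0.49, and ATP5F1A (45.7%) 0.49 and 0.38, in the same order. These 4 were called in both fits. COX7C (39.0%) had 0.01 with the trend removed and 0.71 in the deposited values, COX6C (42.1%) -0.09 and 0.59, ATP5F1C (43.6%) 0.07 and 0.63, and ATP5PD (45.1%) -0.13 and 0.44. None of these last 4 was called with the trend removed. UQCRH, UQCRB, COX7B, COX4I1, ATP5MG and ATP5MPL were not called either (limma, adjusted p of 0.0556 to 0.755). UQCRC1 and ATP5F1B kept their sign, at -0.11 and -0.17, but did not pass (limma, adjusted p = 0.119 and 0.0767), and the 1 gene called lower was COX5A, at -0.16 (limma, adjusted p = 0.0163). By complex, 5 of 9, 5 of 11 and 11 of 18 genes of complexes III, IV and V were still higher. When each gene was given the median GC content and median length of its transcripts, 46.8% of all genes were called and 25 members were called higher and 0 lower (limma; 0 lower at an unadjusted p under 0.05), beside 21.9% higher and 24.9% lower over all genes. Those 25 took in COX7C (0.20), UQCRH (0.38), COX4I1 (0.30), ATP5MG (0.58) and ATP5MPL (0.38), which were not called in the first removal. In all 3 fits 20 members were called higher, among them all 3 c ring genes.

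Among factors known to act on such genes, NRF1, a transcription factor for respiratory genes, averaged 3.19 ± 0.710 FPKM with Bmi1 shRNA and 4.83 ± 0.173 FPKM in control (SD, n = 3 each; log2 fold change -0.49). Of 12 tested regulators 5 rose and 4 fell, at a median of 0.19. TFAM, which packages mitochondrial DNA and activates its transcription, averaged 12.1 ± 0.753 FPKM with Bmi1 shRNA and 5.53 ± 0.770 FPKM in control. HIF1A, the hypoxia factor, averaged 10.4 ± 1.08 FPKM with Bmi1 shRNA and 4.87 ± 0.300 FPKM in control. GABPA and GABPB1, which form the ETS factor GABP, and TFB2M, a mitochondrial transcription factor, rose by 0.53, 0.28 and 0.43 on the log2 scale. PPRC1, a coactivator of the PGC-1 family, POLRMT, the mitochondrial RNA polymerase, and YY1 fell by 0.71, 0.39 and 0.27. With the trend removed, TFAM (0.65), HIF1A (0.46) and PPRC1 (-0.32) were still called and the other 6 were not. GABPB1 (-0.07), TFB2M (-0.03) and YY1 (0.01) changed sign. With medians over transcripts in the removal, YY1 (-0.47) and POLRMT (-0.26) were also called lower, and GABPB1 (0.05) and TFB2M (0.13) kept their sign, not called. TFB1M, another regulator, did not pass in the deposited values and was called lower in both removals (-0.42 and -0.33).

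Genes that act with the members were read from lists, the first of which holds CYC1, CYCS, NDUFA4 and HCCS, all outside the name rule. Of its 4 genes 2 rose and 2 did not pass, at a median of 0.30. CYCS, which encodes cytochrome c, measured 39.9, 50.1 and 45 FPKM with Bmi1 shRNA, against 22.9, 23.8 and 23.9 FPKM in control, and rose, with a log2 fold change of 0.90. NDUFA4, a complex IV subunit despite its name, rose by 0.56, which was 0.08 and not called with the trend removed. HCCS, which attaches heme to cytochrome c, did not pass (log2 fold change -0.04, limma adjusted p = 0.727), and was called lower, at -0.40, with the trend removed. With medians over transcripts in the removal, HCCS was at -0.06 and not called. Of 6 assembly factors of complex III, UQCC2 and UQCC3 rose by 0.50 and 0.51 and UQCC1 had a log2 fold change of -0.35, called at an adjusted p of 0.0457 (limma). The UQCC1 call ended without Bmi1 shRNA replicate 2 or 3 or control replicate 2 or 3 (adjusted p up to 0.129).

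Of 29 tested genes for assembly, copper delivery and mRNA handling of complex IV, 17 rose, 3 fell and 9 did not pass, at a median of 0.31. PET100, needed early in assembly of the enzyme, measured 39.1, 32.8 and 34.8 FPKM with Bmi1 shRNA, against 15.3, 13.9 and 14.6 FPKM in control. Its log2 fold change of 1.23 exceeded that of every member, and it was still called higher with the trend removed. COA3, which stabilises newly made COX1, and COX17, the copper chaperone, rose by 0.62 and 0.78, the second being 0.07 and not called with the trend removed. TACO1, the translational activator of COX1, COX19, a copper-handling factor, and COX15, a heme A synthesis enzyme, had log2 fold changes of -0.27, -0.23 and -0.22. COX15 was not called without Bmi1 shRNA replicate 1 or 3 or control replicate 1 or 3 (adjusted p up to 0.0961), and COX19 was 0.06 with the trend removed. After that removal the list held 8 higher and 6 lower genes (median 0.04). With medians over transcripts in the removal, more genes of the list were called higher and fewer lower. In that fit COX17 was called higher (0.55), COX19 was called lower (-0.15), and TACO1 (-0.01) and COX15 (-0.12) were not called.

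Of 6 genes on the ATP synthase assembly list, FMC1 rose, ATPAF2 and MTERF4 fell and 3 did not pass, at a median of -0.03. FMC1, which acts in F1 assembly, averaged 57.7 ± 1.87 FPKM with Bmi1 shRNA and 33.0 ± 1.56 FPKM in control. ATPAF2, the chaperone of the alpha subunit, averaged 1.46 ± 0.0914 FPKM with Bmi1 shRNA and 2.12 ± 0.181 FPKM in control. MTERF4, which is known for assembly of the mitochondrial ribosome rather than of ATP synthase, fell by 0.33. That call ended without Bmi1 shRNA replicate 2 (limma, adjusted p = 0.0593) and with the trend removed, at -0.12. With medians over transcripts in the removal, MTERF4 was called lower, at -0.29 (limma, adjusted p = 0.0312).

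The other respiratory complexes give a measure of how far the pattern is shared. Of 37 complex I subunit genes 29 rose, 1 fell and 7 did not pass, at a median of 0.50, close to the medians of the complexes above. NDUFB2, NDUFB11 and NDUFA1 had the smallest p among those that rose, at 0.86, 0.60 and 0.88 on the log2 scale. NDUFV1, part of the NADH-oxidising module, had a log2 fold change of -0.38, a call that ended without Bmi1 shRNA replicate 2 or 3 or control replicate 1 or 3 (adjusted p up to 0.0805). With the trend removed the list had 20 genes higher and 2 lower (median 0.24). The 2 lower genes, NDUFS4 and NDUFV2, were called higher (0.15 and 0.35) with medians over transcripts in the removal.

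Of 8 complex II genes 5 rose and 1 fell, at a median of 0.24. The assembly factors SDHAF3 and SDHAF4 rose by 0.49 and 0.78, and SDHB, SDHD and SDHAF1 by 0.25, 0.24 and 0.21. SDHA, the flavoprotein that oxidises succinate, fell by 0.26. Leaving out 1 library ended the calls of SDHA (all but Bmi1 shRNA replicate 3; adjusted p up to 0.125), SDHAF1 (all but Bmi1 shRNA replicate 1; up to 0.106), SDHB (Bmi1 shRNA replicate 1 or 2 or control replicate 3; up to 0.06) and SDHD (Bmi1 shRNA replicate 1 or 2 or control replicate 2; up to 0.0917). With the trend removed 0 genes of the list were called higher (limma, with 1 at an unadjusted p under 0.05), and SDHD was called lower at -0.40. This rested on the transcript chosen. With medians over transcripts in the removal, SDHD (0.26), SDHAF1 (0.35) and SDHAF4 (0.56) were called higher and the other genes of the list were not called.

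The mitochondrially encoded mRNAs of complexes III, IV and V went both ways. Of 6, MT-CO2 was higher, at 14262, 15064 and 13261 FPKM with Bmi1 shRNA and 11943, 11921 and 12367 FPKM in control. MT-CO1 was lower, at 7827, 7070 and 7624 FPKM with Bmi1 shRNA and 10740, 10185 and 10437 FPKM in control, and neither gene's groups overlapped. MT-CYB, MT-CO3, MT-ATP6 and MT-ATP8 did not pass, and the median was -0.05. With the trend removed all 6 were called lower, at a median of -0.55, with MT-CO2 at -0.25. With medians over transcripts in the removal, MT-CO2 and MT-CO3 (0.06 each) were not called and the others were still lower. The difference between nuclear and mitochondrial mRNAs was not tested.

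Genes for the folding of the inner membrane and for carriers that serve ATP synthase gave a mixed picture. Of 13 cristae genes 8 rose and 1 fell, at a median of 0.26. With the trend removed, 5 of the 11 with a known transcript were higher and 1 lower (median 0.06). OPA1, which shapes cristae, rose by 0.90, OMA1, a protease that cuts OPA1, by 0.53, and MICOS13, a subunit of the cristae junction complex, by 0.57. PHB2, a prohibitin, had a log2 fold change of -0.22, not called without Bmi1 shRNA replicate 1 or 3 or control replicate 1 or 3 (adjusted p up to 0.0849). With the trend removed OPA1 (0.58) and OMA1 (0.24) were called higher and PHB2 (-0.23) lower. With medians over transcripts in the removal, OPA1 (0.61) was still higher, but OMA1 (0.07) and PHB2 (-0.04) were not called. MICOS13 had no known transcript and was in neither removal. Of 8 carrier and channel genes 1 rose and 2 fell, at a median of -0.06. With the trend removed 1 was higher and 4 were lower, namely SLC25A4, SLC25A5, VDAC1 (-0.21) and VDAC2 (-0.53), and SLC25A6 was not called. With medians over transcripts in the removal, SLC25A4 and VDAC2 (-0.37) were still lower, but SLC25A5 (0.03) and VDAC1 (-0.17) were not called. SLC25A4, the adenine nucleotide translocator of muscle and heart, measured 5.97, 6.39 and 6.04 FPKM with Bmi1 shRNA, against 12.1, 11.9 and 12.5 FPKM in control, and fell by 0.88 on the log2 scale. Its far more abundant paralog SLC25A5 averaged 666 FPKM in both groups (-0.18 with the trend removed), and SLC25A6 had a log2 fold change of -0.14, a call that ended without any library but Bmi1 shRNA replicate 3 (adjusted p up to 0.117). VDAC3, an outer membrane channel, rose, at 8.19 ± 1.06 FPKM with Bmi1 shRNA and 2.72 ± 0.404 FPKM in control (SD, n = 3 each).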

How the data were processed

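Poly(A) RNA-seq libraries were analysed from one table of FPKM values, deposited by the authors, with a column per library. The Sh columns were read as Bmi1 shRNA and the Sc columns as scrambled control, numbered as in the titles. The labels call the control reagent both shRNA and siRNA, and their extraction protocol also names adipose material, so its library details are not settled. The tools named, per the submitters' processing notes, are HISAT2 2.0, StringTie 1.3.0 and Bowtie 0.12.2, whose roles are not stated. The same notes name the mouse build mm8, although the samples are human. Strand use and the handling of multi-mapped reads are not given in the sources used here. Low values were searched for steps of whole reads, but at most 3.71% of rows shared a ratio between libraries (within 0.1%), so no counts were recovered and the depth is unknown.

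Values were transformed to log2(FPKM + 1) and tested with limma 3.58.1 (R 4.3.3) in the 11016 rows whose mean reached 1 FPKM, with group as the sole term, eBayes with a variance trend and Benjamini-Hochberg adjustment over those rows. This log2 scale understates the change of low genes. Replicates are described as independent transfections, so p-values measure the spread between transfections of 1 line. Shares within a library used exact permutation tests (scipy 1.17.1). GC content and length came from the longest protein-coding GENCODE 29 transcript, known for 92.8% of tested rows, and their trend was removed from each library with natural splines (5 degrees of freedom each), which also removes true change that goes with them. Gene names were matched by symbol to GENCODE 29 and RefSeq tables (GRCh38), with ATP5MD and ATP5MPL matched through their newer symbols.

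Members, lists and motifs were chosen with earlier results of these data known, and the lists were not tested as sets. Every member is named; values per library are given for the 4 largest rises and the largest falls per complex, isoform sets and members not called, and beside these for CYCS, PET100, SLC25A4, MT-CO1, MT-CO2, COX8A, COX4I1, COX7B, UQCRC2 and ATP5F1A. From lists, every called gene was named where up to 12 were tested, otherwise the 3 with the smallest p in each direction. The steps were tested on simulated data.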

Additional observations from a re-analysis of the deposited data

How the results depend on the processing

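Of 16 alternative settings, those that leave out 1 library gave 29 to 31 members called higher (31 with all libraries), 1 to 2 lower (2), 8 called for complex III, 7 to 9 for IV and 15 to 16 for V, a members' median of 0.50 to 0.58, 5226 to 6122 calls over all tested rows (6295), and 65 to 71 higher (71) and 10 to 13 lower (16) genes of the pathway lists. BMI1 ranged over -1.58 to -1.22. Shares moved over 0.687 to 1.16 percentage points for ATP5MC1, -1.15 to 0.0319 for ATP5MC2, -0.931 to 0.161 for ATP5MC3, 0.0918 to 0.187 for UQCRH with UQCRHL the reverse (-0.187 to -0.0918), and 1.36 to 1.86 for ATP5F1A beside ATP5F1B (-1.86 to -1.36).

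With a mean of at least 5 FPKM, where fewer rows are tested, 3478 rows were called. With the GC and length trend removed there were 4057 calls over all rows, 1 member lower (COX5A), 5 calls in complex III, a members' median of 0.28, and 40 higher and 26 lower pathway genes. Taking medians over transcripts, an alternative chosen after seeing the data, gave 0 members lower, 5 calls in complex III and a median of 0.38. In that fit 55 pathway genes were higher and 18 lower. The members called lower numbered 1 with no filter (9 pathway genes lower) and 1 with upper quartile scaling. The members' median was 0.47 with libraries scaled to a common total and 0.43 with quantile normalization, where UQCRFS1 was called lower (-0.16; limma, adjusted p = 0.0424) and UQCR10 (0.33), COX6A1 (0.33), COX8A (0.25) and ATP5F1B (-0.38) moved by over 1.5 times but stayed called. Signs turned for COX5A (-0.005 with a common total, -0.082 with quantile normalization, -0.16 with the trend removed), COX6C (-0.086) and ATP5PD (-0.13) with the trend removed, and COX7B (-0.071) with medians over transcripts. The cause was not tested.

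Over all tested rows together, replicate numbers showed no pairing of the libraries. Same-numbered deviations correlated at 0.00374, -0.0791 and -0.0234, and no library correlated best with its own number. A correlation over all rows cannot tell whether some genes share a replicate effect. With a replicate block 5658 rows were called, 30 members higher and 1 lower; COX4I1 (limma, adjusted p = 0.0588) and ATP5F1B (adjusted p = 0.081) were no longer called. With the block and the trend removed there were 3141 calls, 0 members lower (1 at an unadjusted p under 0.05), 5 calls in complex III and 5 in IV, a median of 0.28, 36 higher pathway genes, and COX5A at -0.16, COX6C at -0.086 and ATP5PD at -0.13. A count model listed among the alternatives was not run, since the table holds no counts. Unknown depth, 1 cell line and 3 libraries a group limit all values.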
